A study of Mus musculus with 20 samples.

Results

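Lactate handling was examined in mouse gastrocnemius through 7 genes that encode lactate transporters, their partner proteins and lactate dehydrogenases. The genes, listed by name with earlier results of these data known, were Slc16a1, Slc16a3, Bsg, Emb, Ldha, Ldhb and Ldhd. Counts of calls among them are therefore descriptions, and the list was not tested. All 7 listed genes were measured, out of 19938 genes tested, and each was read from its brightest probe set with a single gene symbol. No gene was removed for low values. Expression had been measured on Affymetrix Gene 1.0 ST arrays, which carry probes along whole transcripts, with 5 arrays in each of 4 groups of adult male C57BL/6 mice. NCoR1-MKO mice lacked the corepressor NCoR1 in muscle and were compared with CON mice. PGC-1alpha-mTg mice overexpressed the coactivator PGC-1alpha in muscle and were compared with WT mice. The genotype of CON beyond the word control, the driver of the deletion and of the transgene, and the number of founder lines are not given in the sources used here. Gastrocnemius is a calf muscle of mixed, mostly fast fibres, and the arrays read whole muscle with its vessels, connective tissue and nerve.

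Values were deposited on a log2 scale, so a difference of 1 is a doubling. The median of an array was 6.03 to 6.08 in the knockout cohort (CON with NCoR1-MKO, 10 arrays) and 5.84 to 5.91 in the transgenic cohort (WT with PGC-1alpha-mTg, 10 arrays). These cohorts appear to have been normalized separately, so each model was set against its own controls and levels were not compared across cohorts. An array has no sequencing depth, and the number of arrays limits the precision. Changes are given as log2 fold change ± SE with n = 5 per group, from limma fitted over all genes, and "rose" and "fell" are kept for an adjusted p under 0.05 after Benjamini-Hochberg adjustment. Ppargc1a, which encodes PGC-1alpha, was higher by 1.83 ± 0.07 in PGC-1alpha-mTg (limma adjusted p = 9.88e-15) on its brighter probe set, 10529979. The dimmer one, 10529977, went the other way, at -1.003 ± 0.11 (adjusted p = 1.73e-07 among all probe sets), with all 5 transgenic arrays below all WT arrays. Ncor1 was not analysed here, so the knockout could not be checked through its own target. The summed level of 6 muscle fibre markers (Acta1, Ckm, Des, Mb, Myh4 and Tnnt3) varied little within a cohort. It was 16.18 to 16.21 in CON, 16.22 to 16.23 in NCoR1-MKO, 15.60 to 15.65 in WT and 15.60 to 15.63 in PGC-1alpha-mTg. Of these markers limma called 0 in NCoR1-MKO and 1 in PGC-1alpha-mTg, where Mb rose by 0.29 ± 0.05 (adjusted p = 7.4e-05). An unadjusted p under 0.05 was met by 0 and 4 of the 6.

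Lactate forms in the cytosol when lactate dehydrogenase reduces pyruvate, and it crosses membranes together with a proton through monocarboxylate transporters. In muscle, MCT1 (Slc16a1) is typical of oxidative fibres, where lactate is taken up and burned, and MCT4 (Slc16a3) is typical of glycolytic fibres, which export it. Both need a single-pass membrane glycoprotein to reach the cell surface, usually basigin (Bsg), and embigin (Emb) is a related partner. Lactate dehydrogenase is a tetramer of A (Ldha, or M) and B (Ldhb, or H) subunits; the A subunit dominates in fast muscle and the B subunit in heart. Ldhd encodes a separate mitochondrial enzyme that oxidises D-lactate, the mirror form that arises from methylglyoxal detoxification. PGC-1alpha is known to drive oxidative genes in muscle, and NCoR1 is known to hold back several of the nuclear receptors that PGC-1alpha assists.

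In PGC-1alpha-mTg muscle 5 of the 7 genes passed the test, while 28.0 percent of all genes did. Slc16a1 rose 2.07-fold, Ldhd rose 1.74-fold and Ldhb rose 1.23-fold, while Slc16a3 fell 1.39-fold and Ldha fell 1.23-fold. Of the rises, 3 of 7 compare with 11.9 percent of all genes called higher, and of the falls, 2 of 7 compare with 16.1 percent called lower. In NCoR1-MKO muscle only Ldhd passed, with a 1.23-fold rise, so 1 of 7 genes was called against 2.63 percent of all genes, or 1.31 percent counting rises alone. Bsg and Emb were called in neither model. The median change of the 7 genes was 0.04 in NCoR1-MKO and 0.06 in PGC-1alpha-mTg, beside 0.001 and 0.02 for all genes. These medians hide changes in opposite directions.

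**Figure D1:**
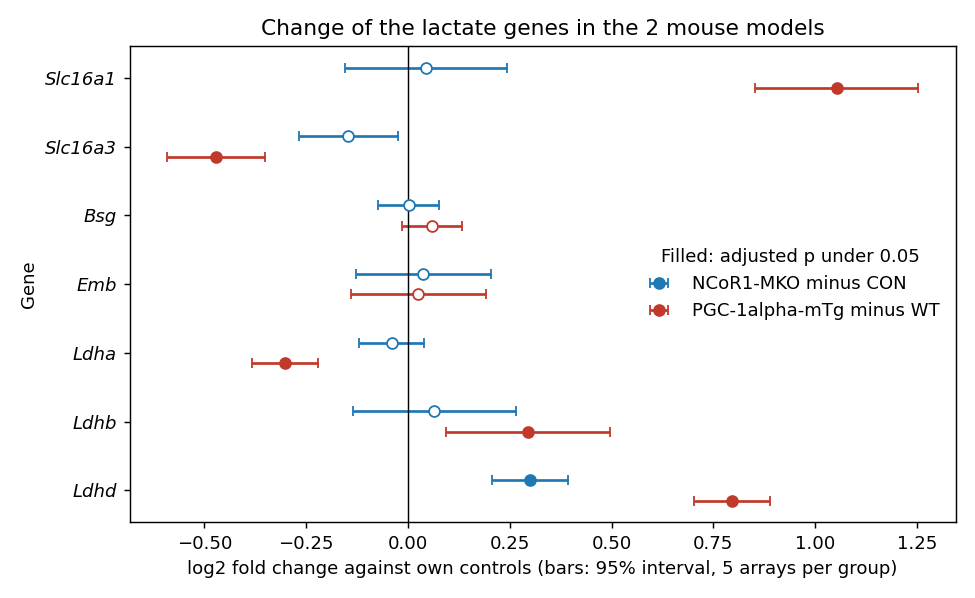
Log2 fold change of each of the 7 genes in NCoR1-MKO against CON (blue) and in PGC-1alpha-mTg against WT (red), with 95% intervals from limma and 5 arrays per group; filled points have an adjusted p under 0.05. Slc16a1 stands at 1.05 and Ldhd at 0.80 in PGC-1alpha-mTg, Slc16a3 at -0.47 and Ldha at -0.30, and in NCoR1-MKO only Ldhd, at 0.30, is filled.

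Promoter windows of the genes were read from RefSeq (mouse assembly GRCm38.p6). Those of 4 genes that changed are shown because they share a short motif. A window runs from 250 bases before to 50 bases after a transcript's start, and 6 of the 7 genes had one, with a second window for Ldha. Windows were searched on both strands for CACGTG, the E-box read by MYC and other basic helix-loop-helix factors, for ACGTG, the core of the element bound by hypoxia-inducible factors, for AAGGTCA, a half-site that estrogen-related receptors can bind, and for its longer form TNAAGGTCA. ACGTG lies within CACGTG, and AAGGTCA within TNAAGGTCA. The 250 bases before the start are shown, 5′ to 3′ on the gene's strand, with ACGTG or CACGTG on either strand in capitals. They are chr3:104638414-104638663 (plus strand) for Slc16a1, chr11:120948817-120949066 (plus strand) for Slc16a3, chr7:46845554-46845803 (plus strand) for the first window of Ldha and chr8:111630337-111630586 (minus strand) for Ldhd.
Slc16a1: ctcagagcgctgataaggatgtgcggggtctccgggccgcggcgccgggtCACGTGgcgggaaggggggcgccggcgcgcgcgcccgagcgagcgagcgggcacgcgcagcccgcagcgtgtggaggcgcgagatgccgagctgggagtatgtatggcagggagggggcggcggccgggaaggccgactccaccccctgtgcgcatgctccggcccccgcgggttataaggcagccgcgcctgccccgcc
Slc16a3: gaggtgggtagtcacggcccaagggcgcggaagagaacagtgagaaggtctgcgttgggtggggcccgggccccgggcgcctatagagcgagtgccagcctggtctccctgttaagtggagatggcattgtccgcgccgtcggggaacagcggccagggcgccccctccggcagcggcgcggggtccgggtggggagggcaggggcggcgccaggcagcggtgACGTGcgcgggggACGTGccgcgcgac
Ldha: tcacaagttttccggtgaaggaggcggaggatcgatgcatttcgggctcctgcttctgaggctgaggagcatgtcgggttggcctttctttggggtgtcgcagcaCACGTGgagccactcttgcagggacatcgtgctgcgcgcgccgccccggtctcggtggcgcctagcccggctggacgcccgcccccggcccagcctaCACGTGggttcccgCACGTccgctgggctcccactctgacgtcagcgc
Ldhd: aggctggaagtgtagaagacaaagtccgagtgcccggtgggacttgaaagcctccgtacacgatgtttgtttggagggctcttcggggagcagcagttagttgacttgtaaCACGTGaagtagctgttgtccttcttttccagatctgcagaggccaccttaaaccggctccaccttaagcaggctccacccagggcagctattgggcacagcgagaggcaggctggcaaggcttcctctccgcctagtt

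CACGTG was found in the windows of 3 genes and in 7.15 percent of all 32851 windows. It began 200 bases before the start in Slc16a1, 145 and 48 bases before it in Ldha and 139 bases before it in Ldhd. Slc16a3 held ACGTG at 27 and 14 bases before the start without the leading C. In Ldha the third capital run, at 34 bases, is ACGTG on the opposite strand. ACGTG was thus in a window of 4 of the 6 genes, beside 19.6 percent of all windows. The genes with these letters moved in both directions in PGC-1alpha-mTg, since Slc16a1 and Ldhd rose and Slc16a3 and Ldha fell. AAGGTCA, present in 4.72 percent of all windows, and TNAAGGTCA, in 1.28 percent, were in no window of the 6 genes. The windows of Emb and Ldhb and the second window of Ldha held none of the 4 motifs. The percentages count windows, 32851 from 27025 genes, and the 6 genes had 7 windows. Counts of genes and these percentages are therefore not like shares. A match is a description of letters, not a binding site, and the arrays did not measure binding.

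Among the transporters, Slc16a1 (probe set 10495035) showed the largest rise of the 7 genes. In WT its 5 arrays, in replicate order, read 9.22, 9.00, 8.88, 8.86 and 9.07, and in PGC-1alpha-mTg they read 9.98, 10.07, 10.15, 10.12 and 9.98. Every transgenic array lay above every WT array, with a gap of 0.76 between the groups, and such separation upwards was seen in 8.72 percent of all genes in this comparison. The means were 9.01 ± 0.15 (SD, n = 5) and 10.06 ± 0.08. The change was 1.05 ± 0.10 with a 95% interval of 0.85 to 1.25 (limma adjusted p = 1.29e-08), the 42nd largest rise among all genes by the fitted change.

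In the knockout cohort the CON arrays for Slc16a1 read 9.14, 9.32, 9.08, 9.01 and 9.45, and the NCoR1-MKO arrays 9.10, 9.03, 9.24, 9.24 and 9.62. The groups overlapped almost fully, at 9.20 ± 0.18 (SD, n = 5) and 9.24 ± 0.23, with a highest array in each that stood clear of most others. The change of 0.04 ± 0.10 did not pass the test (limma adjusted p = 0.953), and its 95% interval of -0.16 to 0.24 lies below the interval seen in PGC-1alpha-mTg. A rise as large as that in the transgenic mice was therefore outside the interval, while a change of up to about that upper bound was not resolved.

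Slc16a3 (probe set 10383502), the exporter of glycolytic fibres, moved the other way. The WT arrays read 10.96, 11.08, 11.01, 10.93 and 11.08 and the PGC-1alpha-mTg arrays 10.51, 10.52, 10.54, 10.63 and 10.49. All 5 transgenic arrays lay below all WT arrays, as was the case downwards for 11.2 percent of all genes. The means were 11.01 ± 0.07 (SD, n = 5) and 10.54 ± 0.06, a fall of 0.47 ± 0.06 on the log2 scale with a 95% interval of -0.59 to -0.35 (limma adjusted p = 1.21e-06).

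The CON arrays for Slc16a3 read 10.96, 11.08, 11.26, 10.96 and 11.02 and the NCoR1-MKO arrays 10.93, 10.97, 10.94, 10.98 and 10.73. In NCoR1-MKO 3 of the 5 arrays lay below every CON array, and the other two were within the CON range. The change of -0.15 ± 0.06 (95% interval -0.27 to -0.03) had an unadjusted p of 0.0200, which did not pass after adjustment over all genes (limma adjusted p = 0.263). Without CON 3, the highest CON array, it was -0.10 (adjusted p = 0.587). The lowest array, 10.73, stood apart from the other NCoR1-MKO arrays at 10.93 to 10.98.

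**Figure D2:**
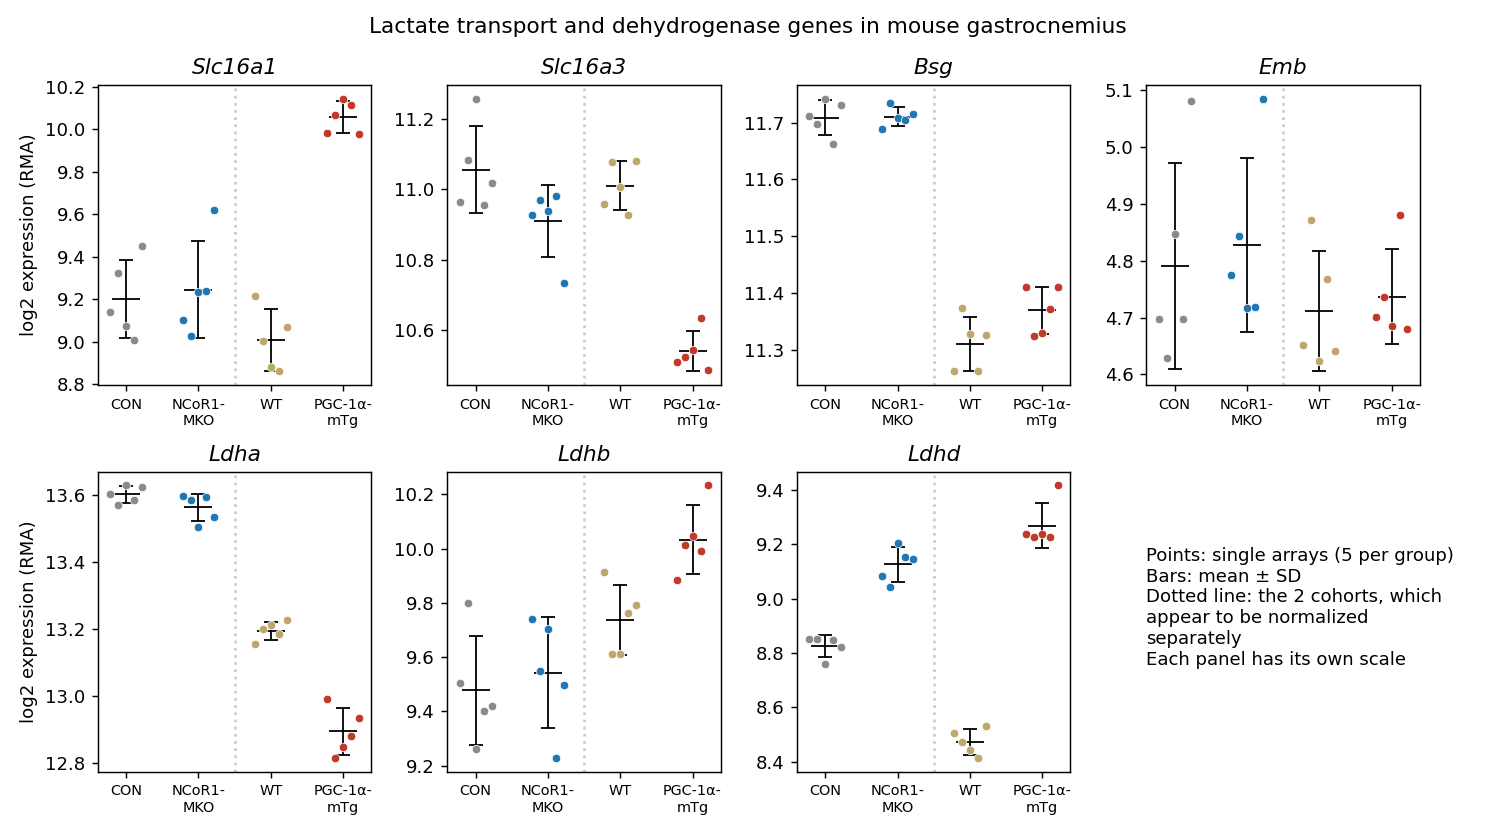
Log2 expression of the 7 genes on each array (points) in each group, with the mean and SD of the 5 arrays as bars; the dotted line parts the cohorts, which appear to have been normalized separately, and each panel has its own scale. For Slc16a1 and Ldhd the PGC-1alpha-mTg arrays lie above all WT arrays, for Slc16a3 and Ldha below them, and for Ldhd the NCoR1-MKO arrays lie above all CON arrays.

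The partner proteins changed little in comparison. Bsg (probe set 10364468) read 11.26 to 11.37 in WT and 11.32 to 11.41 in PGC-1alpha-mTg. Of the transgenic arrays 2 lay above every WT array, and the groups overlapped. The change of 0.06 ± 0.04 did not pass (limma adjusted p = 0.247). Its 95% interval of -0.02 to 0.13 leaves room for at most a small rise. In the knockout cohort Bsg read 11.66 to 11.74 in CON and 11.69 to 11.73 in NCoR1-MKO, with a change of 0.002 ± 0.04 and an interval of -0.07 to 0.08 (limma adjusted p = 0.995). The SDs were 0.03 in CON and 0.02 in NCoR1-MKO.

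Emb (probe set 10407327) was among the dimmest 40 percent of genes by mean level, and the deposited values include no background against which to call it present. It read 4.63 to 5.08 in CON, 4.72 to 5.09 in NCoR1-MKO, 4.62 to 4.87 in WT and 4.68 to 4.88 in PGC-1alpha-mTg. The ranges overlapped in both cohorts. The changes were 0.04 ± 0.08 in NCoR1-MKO (95% interval -0.13 to 0.20, limma adjusted p = 0.951) and 0.03 ± 0.08 in PGC-1alpha-mTg (-0.14 to 0.19, adjusted p = 0.859). Nptn, the third member of the basigin family, was likewise not called, at -0.08 (adjusted p = 0.422) and 0.02 (adjusted p = 0.774).

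The A subunit gene Ldha (probe set 10553301) was bright, beside a highest deposited value of 14.47 for any gene, and varied little within a group. Whether so bright a signal follows RNA in proportion was not tested. The WT arrays read 13.15, 13.20, 13.21, 13.18 and 13.23 and the PGC-1alpha-mTg arrays 12.99, 12.81, 12.85, 12.88 and 12.93. The groups did not overlap, with a gap of 0.16, and the highest transgenic array was the first. Such separation downwards was seen in 11.2 percent of all genes in this comparison. The means were 13.20 ± 0.03 (SD, n = 5) and 12.89 ± 0.07, and Ldha fell by 0.30 ± 0.04 with a 95% interval of -0.38 to -0.22 (limma adjusted p = 1.97e-06). In the knockout cohort the CON arrays read 13.61, 13.57, 13.63, 13.59 and 13.62 and the NCoR1-MKO arrays 13.60, 13.59, 13.51, 13.59 and 13.54. Those groups overlapped, and the change of -0.04 ± 0.04 did not pass (interval -0.12 to 0.04, adjusted p = 0.830).

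The B subunit gene Ldhb (probe set 10462035) was more variable. The WT arrays read 9.91, 9.61, 9.61, 9.76 and 9.79 and the PGC-1alpha-mTg arrays 9.88, 10.01, 10.05, 9.99 and 10.23. Of the 5 transgenic arrays, 4 lay above every WT array and all 5 above the WT mean, but the groups overlapped through the first array of each. The means were 9.74 ± 0.13 (SD, n = 5) and 10.03 ± 0.13. The rise of 0.29 ± 0.10 (95% interval 0.09 to 0.50) was the least secure of the 5 calls (limma adjusted p = 0.0251), and it missed the threshold without WT 2 (0.26, adjusted p = 0.0669), WT 3 (0.26, adjusted p = 0.0701) or PGC-1alpha-mTg 5 (0.24, adjusted p = 0.0629).

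In the knockout cohort the CON arrays for Ldhb read 9.51, 9.80, 9.26, 9.40 and 9.42 and the NCoR1-MKO arrays 9.74, 9.55, 9.70, 9.23 and 9.50. These ranges covered each other, and the change of 0.07 ± 0.10 did not pass (interval -0.14 to 0.27, limma adjusted p = 0.915). Ldhb was also read by a dimmer probe set, 10549097, which carries the same RefSeq transcript in the platform's gene table. That probe set read 9.98, 9.66, 9.70, 9.73 and 9.91 in WT and 9.93, 10.13, 10.05, 10.12 and 10.37 in PGC-1alpha-mTg, again with 4 of 5 transgenic arrays above every WT array. Its change was 0.32 ± 0.10 in PGC-1alpha-mTg (adjusted p = 0.0148 among all probe sets) and 0.02 ± 0.10 in NCoR1-MKO (adjusted p = 0.978). The probe sets thus moved alike, though they are not separate evidence, since they were read on the same RNA. Whether either probe set also reads a related copy of the gene was not tested, and this holds for each Ldhb value given here.

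Because the subunits assemble in one tetramer, the difference between the Ldhb and Ldha changes was also described on each array, relative to the mean of its controls. It ranged from -0.14 to 0.22 in WT and from 0.35 to 0.75 in PGC-1alpha-mTg, with a mean of 0.60 ± 0.15 (SD, n = 5), a 1.51-fold shift towards Ldhb transcript. It ranged from -0.24 to 0.36 in CON and from -0.24 to 0.32 in NCoR1-MKO, whose mean was 0.10 ± 0.22. The transgenic arrays therefore lay above all WT arrays on this measure, and the knockout arrays stayed within the CON range. No test was made of it, as it combines values already described.

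**Figure D3:**
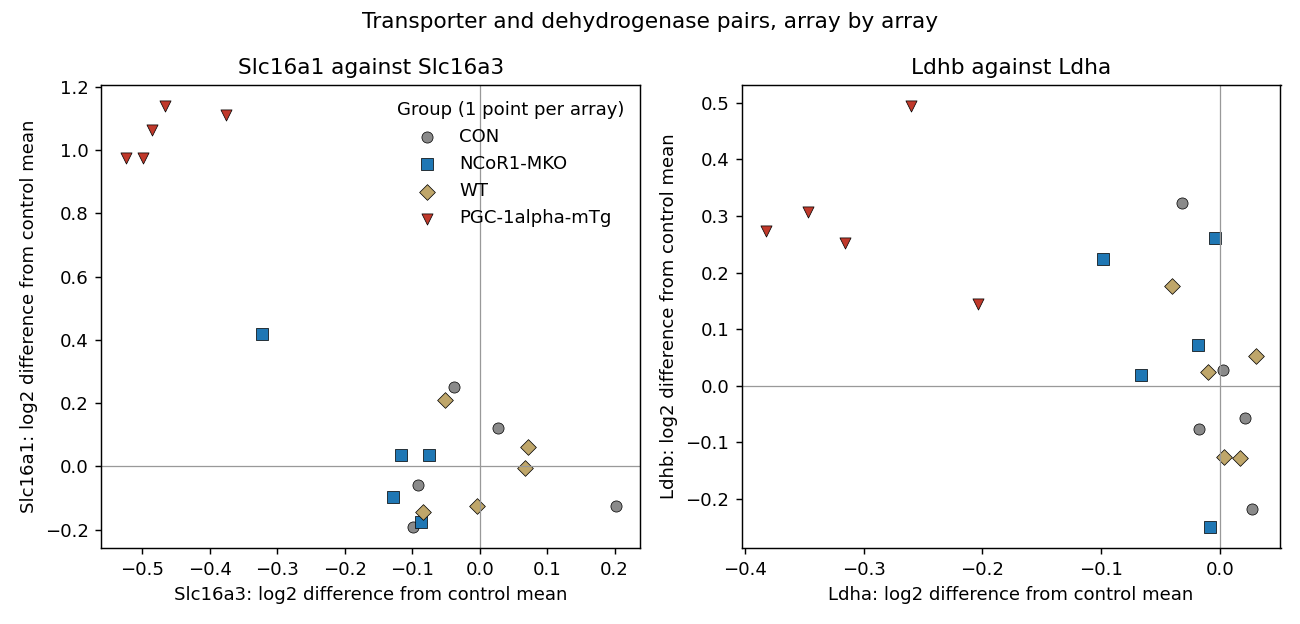
Each point is 1 array, placed by its log2 difference from the mean of its own controls for Slc16a3 (x) and Slc16a1 (y) on the left and for Ldha (x) and Ldhb (y) on the right, by group. The 5 PGC-1alpha-mTg arrays lie to the upper left in both panels, with Slc16a1 up and Slc16a3 down and with Ldhb up and Ldha down, and 1 NCoR1-MKO array, the one at 10.73 for Slc16a3, lies apart from its group in the left panel.

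Ldhd (probe set 10581865) was the only one of the 7 genes called in both models. The CON arrays read 8.85, 8.85, 8.76, 8.85 and 8.82 and the NCoR1-MKO arrays 9.08, 9.04, 9.21, 9.16 and 9.15. No knockout array reached down to a CON array, with a gap of 0.19, a separation upwards that 2.21 percent of all genes showed in this comparison. The means were 8.83 ± 0.04 (SD, n = 5) and 9.13 ± 0.06. The rise of 0.30 ± 0.04 (95% interval 0.21 to 0.39) was 80th of 19938 genes by p-value (limma adjusted p = 0.000248).

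In the transgenic cohort the WT arrays for Ldhd read 8.50, 8.47, 8.44, 8.41 and 8.53 and the PGC-1alpha-mTg arrays 9.24, 9.23, 9.24, 9.23 and 9.42. Of the transgenic arrays 4 were nearly equal and the remaining one was higher, and all lay above WT with a gap of 0.70. Such separation upwards was seen in 8.72 percent of all genes in this comparison. The means were 8.47 ± 0.05 (SD, n = 5) and 9.27 ± 0.08. The rise of 0.80 ± 0.04 (interval 0.70 to 0.89) was 67th by p-value (limma adjusted p = 5.85e-12). Across all 19938 genes, 390 were called in both models, whatever the directions. No control array was shared between the comparisons, but the fit took 1 estimate of each gene's spread from all 20 arrays.

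The difference between the models, taken as the PGC-1alpha-mTg effect minus the NCoR1-MKO effect in the same fit, passed for 4 of the 7 genes, beside 15.2 percent of all genes. It was positive for 2 of them and negative for 2, beside 6.66 and 8.50 percent of all genes. It was 1.01 ± 0.14 for Slc16a1 (limma adjusted p = 1.18e-05), -0.32 ± 0.08 for Slc16a3 (adjusted p = 0.00799), -0.26 ± 0.05 for Ldha (adjusted p = 0.00151) and 0.50 ± 0.06 for Ldhd (adjusted p = 5.59e-06). For Ldhd the effects had the same sign and the transgenic one was the larger. For Ldhb the difference of 0.23 ± 0.14 did not pass (95% interval -0.05 to 0.51, adjusted p = 0.310), so its call in PGC-1alpha-mTg alone does not show that the models differ. Bsg (0.06 ± 0.05, adjusted p = 0.522) and Emb (-0.01 ± 0.11, adjusted p = 0.962) did not pass either.

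Genes whose pattern was most like each called gene were listed by Pearson correlation over the 20 arrays after the mean of each cohort was removed. The PGC-1alpha-mTg arrays stand apart for these genes, so r mostly follows that group difference, and the correlation after removal of group means is given second. Ldhd was most like Acadvl (0.990 and 0.773), Slc25a20 (0.989 and 0.777) and Atp5mpl (0.987 and 0.558). Slc16a1 was most like Nceh1 (0.959 and 0.682), Ciapin1 (0.955 and 0.618) and Retsat (0.949 and 0.545), and Slc16a3 was most like Ccnk (0.950 and 0.796), Slc2a3 (0.935 and 0.742) and Stim2 (0.934 and 0.613). Ldha was most like Gas5 (0.972 and 0.842), Pip4k2b (0.966 and 0.732) and Tab2 (0.966 and 0.685). For Ldhb the highest values were lower, at 0.860 and 0.796 for Smtnl1, 0.854 and 0.774 for Apool and 0.848 and 0.791 for Atp1b1.

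The surrounding pathway was followed in 81 measured genes of 88 listed by function, also with earlier results of these data known. In PGC-1alpha-mTg 30 rose and 14 fell, or 54.3 percent of them beside 28.0 percent of all genes, with a median of 0.05. The rises include Ppargc1a, the overexpressed gene itself. In NCoR1-MKO 7 rose and 2 fell, or 11.1 percent beside 2.63 percent, with a median of 0.03. The NCoR1-MKO count was 5 without CON 3 or NCoR1-MKO 3. Beside the counts of single lists below, 11.9 percent of all genes rose and 16.1 percent fell in PGC-1alpha-mTg.

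Of 13 other monocarboxylate transporters measured, 2 rose and 2 fell in PGC-1alpha-mTg, at a median of 0.03. These 4 of 13 stand beside 28.0 percent of all genes called. Slc16a6, reported to carry ketone bodies, fell by 0.55 ± 0.12 (limma adjusted p = 0.00104), and Slc16a10, which carries aromatic amino acids, fell by 0.34 ± 0.09 (adjusted p = 0.00696). Slc16a12, a creatine transporter, rose by 0.37 ± 0.07 (adjusted p = 0.000192). Slc16a14 rose by 0.19 ± 0.07 at the edge of the threshold (adjusted p = 0.0483) and was lost with 11 of the 20 arrays when each was left out in turn, with its adjusted p reaching 0.153, and also after quantile normalization across all arrays (adjusted p = 0.0669), after median centring (adjusted p = 0.0692) and in the 10 arrays of the transgenic cohort alone (adjusted p = 0.0609). In NCoR1-MKO Slc16a10 was the only call, a fall of 0.39 ± 0.09 (adjusted p = 0.0193) that was lost when CON 3 or NCoR1-MKO 3, 4 or 5 was left out (adjusted p up to 0.0660). None of the 3 other lactate dehydrogenase family genes measured (Ldhc, Ldhal6b and Uevld) was called by limma in either model, and 1 in NCoR1-MKO and 0 in PGC-1alpha-mTg had an unadjusted p under 0.05.

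The genes that lead from methylglyoxal to D-lactate, the substrate of Ldhd, did not move as one in PGC-1alpha-mTg. Hagh, the glyoxalase that releases D-lactate, rose by 0.54 ± 0.04 (limma adjusted p = 5.44e-10), while Park7, a protein reported to act on glycated products, fell by 0.16 ± 0.03 (adjusted p = 0.000842). Glo1, which catalyses the step before Hagh, fell by 0.13 ± 0.05 (adjusted p = 0.0287) and lost its call when WT 1, 2 or 3 or PGC-1alpha-mTg 1 or 2 was left out (adjusted p up to 0.0773). In NCoR1-MKO, where Ldhd rose, limma called 0 of these 3 genes and 0 had an unadjusted p under 0.05.

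Glycolysis, which supplies the pyruvate for Ldha, had 1 gene higher and 2 lower of 18 measured in PGC-1alpha-mTg, at a median of -0.05. These 3 of 18 stand beside 28.0 percent of all genes called. The kinase and phosphatase gene Pfkfb2, which sets the level of fructose 2,6-bisphosphate, rose by 0.86 ± 0.07 (limma adjusted p = 5.95e-10). The glucose transporter gene Slc2a1 fell by 0.40 ± 0.06 (adjusted p = 2.99e-05) and the pyruvate kinase gene Pkm fell by 0.22 ± 0.04 (adjusted p = 0.000230). In NCoR1-MKO limma called 0 of the 18, with 1 at an unadjusted p under 0.05 and a median of 0.02.

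The fates of pyruvate other than lactate were represented by 14 genes of mitochondrial entry and the pyruvate dehydrogenase complex. In PGC-1alpha-mTg 10 rose and 2 fell, at a median of 0.42. The core subunit genes Dlat (1.01 ± 0.04, limma adjusted p = 3.29e-14), Dld (0.87 ± 0.06, adjusted p = 1.2e-10), Pdhb (0.83 ± 0.05, adjusted p = 1.81e-11) and Pdhx (0.80 ± 0.05, adjusted p = 3.82e-11) rose most. The rises also included Pdk4 (0.42 ± 0.08, adjusted p = 0.000305) and Pdk2 (0.18 ± 0.04, adjusted p = 0.000783), kinases that inhibit the complex. Of the other such kinases, Pdk1 fell by 0.22 ± 0.05 (adjusted p = 0.00285) and Pdk3 was not called (0.04, adjusted p = 0.716). The pyruvate dehydrogenase phosphatase genes Pdpr (0.47 ± 0.04, adjusted p = 5.37e-10) and Pdp2 (0.34 ± 0.07, adjusted p = 0.000708) rose, and Pdp1 was not called (0.085, adjusted p = 0.455). Pcx, which carboxylates pyruvate to oxaloacetate, fell by 0.59 ± 0.08 (adjusted p = 5.17e-06). In NCoR1-MKO Dlat rose by 0.20 ± 0.04 (adjusted p = 0.00418) and Pdhb by 0.21 ± 0.05 (adjusted p = 0.0215), while Pcx fell by 0.47 ± 0.08 (adjusted p = 0.00121). The call of Pdhb was lost when CON 3 or 5 or NCoR1-MKO 3 or 5 was left out (adjusted p up to 0.0739). It was also lost after median centring (adjusted p = 0.0507) and in the 10 arrays of the knockout cohort alone (adjusted p = 0.0555). With the replicate number as a block, limma called neither Dlat (adjusted p = 0.0512) nor Pdhb (adjusted p = 0.115) in NCoR1-MKO.

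The shuttles that carry the reducing equivalents of NADH, which lactate dehydrogenase otherwise uses, and the alanine aminotransferases made up 12 genes. In PGC-1alpha-mTg 8 rose and 3 fell, at a median of 0.44. The malate-aspartate shuttle genes Mdh1 (0.81 ± 0.04, limma adjusted p = 2.81e-12), Got1 (0.80 ± 0.05, adjusted p = 6.47e-12), Slc25a11 (0.55 ± 0.04, adjusted p = 9.63e-11) and Got2 (0.54 ± 0.04, adjusted p = 1.11e-10) rose. The glycerol-phosphate shuttle genes Gpd2 (-0.38 ± 0.05, adjusted p = 3e-06) and Gpd1 (-0.17 ± 0.04, adjusted p = 0.00348) fell. In NCoR1-MKO 4 rose and none fell, at a median of 0.11: the alanine aminotransferase genes Gpt2 (0.37 ± 0.06, adjusted p = 0.000769) and Gpt (0.27 ± 0.05, adjusted p = 0.00201), Got1 (0.24 ± 0.05, adjusted p = 0.00308) and Mdh1 (0.18 ± 0.04, adjusted p = 0.0187). The call of Mdh1 was lost when CON 3 or NCoR1-MKO 3 or 5 was left out (adjusted p up to 0.0693). It was also lost in the 10 arrays of the knockout cohort alone (adjusted p = 0.0716) and with the replicate number as a block (adjusted p = 0.0823). Gpt2 went the other way in PGC-1alpha-mTg, where it fell by 0.31 (adjusted p = 0.000405).

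Lactate leaves a cell with a proton, and 6 genes of the lactate receptor and of proton and bicarbonate handling were measured. In PGC-1alpha-mTg 3 rose and 2 fell. The carbonic anhydrase genes Car2 (1.86 ± 0.12, limma adjusted p = 3.43e-11), Car14 (1.04 ± 0.11, adjusted p = 6.11e-08) and Car4 (0.62 ± 0.14, adjusted p = 0.00173) rose, and Car3, the abundant cytosolic form of slow muscle, fell by 0.81 ± 0.04 (adjusted p = 2.82e-12). The lactate receptor gene Hcar1 was not called, at 0.14 (adjusted p = 0.186). In NCoR1-MKO limma called 0 of the 6, with 1 at an unadjusted p under 0.05.

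Of 11 regulators known to act on lactate genes, 5 rose and 1 fell in PGC-1alpha-mTg, and the rises include Ppargc1a, the overexpressed gene itself. Besides Ppargc1a, whose probe sets disagree as given above, these included the estrogen-related receptor genes Esrrb (1.35 ± 0.08, limma adjusted p = 6.45e-12) and Esrra (0.66 ± 0.05, adjusted p = 1.73e-10) and Epas1, which encodes hypoxia-inducible factor 2alpha (0.63 ± 0.05, adjusted p = 1.78e-09). Hif1a was not called (-0.13, adjusted p = 0.0691). The regulator that fell was Arnt (-0.21 ± 0.05, adjusted p = 0.00126). In NCoR1-MKO 1 of 11 rose, the PGC-1alpha relative Ppargc1b (0.51 ± 0.12, adjusted p = 0.0193), whose call was lost when CON 3 or NCoR1-MKO 3 or 4 was left out (adjusted p up to 0.0642).

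**Figure D4:**
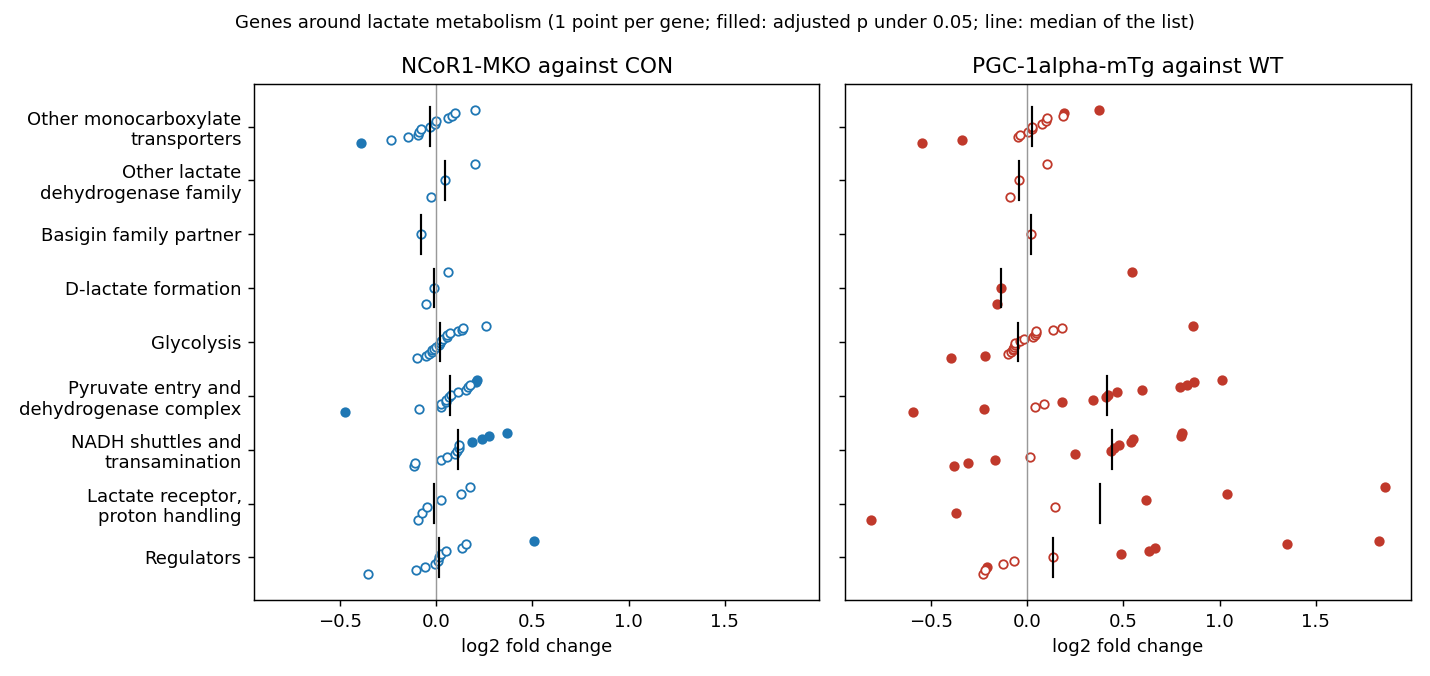
Log2 fold change of each measured gene (points) in 9 lists around lactate metabolism, in NCoR1-MKO against CON (left) and PGC-1alpha-mTg against WT (right); filled points have an adjusted p under 0.05 and vertical lines mark the median of a list. In PGC-1alpha-mTg the medians of the pyruvate entry and NADH shuttle lists lie at 0.42 and 0.44 and that of glycolysis at -0.05.

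The 7 genes are also expressed outside muscle fibres, and in whole muscle fewer cells of a type and less RNA per cell cannot be told apart. Markers of other cells and of fibre types moved beside the results for the lactate genes. Of all genes, 28.0 percent were called in PGC-1alpha-mTg and 2.63 percent in NCoR1-MKO. In PGC-1alpha-mTg 5 of 7 endothelial markers were called higher (median 0.39), with a summed level of 11.75 to 11.86 against 11.35 to 11.59 in WT. In the same comparison 5 of 7 slow fibre markers were lower (median -0.72; summed level 11.65 to 12.44 against 12.61 to 13.18), while 1 of 8 fast fibre markers was higher and 4 were lower (summed level 15.81 to 15.85 against 15.88 to 15.92). In addition, 3 of 4 satellite cell markers were lower (8.30 to 8.49 against 8.63 to 8.75), as were 2 of 6 fibroblast markers (12.72 to 12.83 against 12.88 to 13.10). The fibroblast count lay between 1 and 3 when 1 array was left out. In NCoR1-MKO, beside the rise of Ldhd, 1 of 7 endothelial markers was called higher (median 0.20, summed level 11.92 to 12.28 against 11.65 to 11.93 in CON). There 2 of 7 slow fibre markers were called lower (median -0.91, summed level 11.76 to 12.71 against 12.40 to 13.38). With 1 array left out, 0 to 2 and 1 to 5 were called. Changes of the 7 slow fibre markers ran from -1.09 to -0.36. An unadjusted limma p under 0.05 was met by 7 of 7 slow fibre and 5 of 7 endothelial markers. The difference between the models was called for 0 of 7 slow fibre and 1 of 7 endothelial markers. Limma called 0 markers of erythroid cells (2 of 6 measured), macrophages, adipocytes (4 of 5 measured), Schwann cells (2 of 5 measured) and smooth muscle in either model, and an unadjusted p under 0.05 was met only in PGC-1alpha-mTg, by 1 Schwann cell and 2 smooth muscle markers. The part of these markers in the changes of Slc16a1, Slc16a3, Ldha, Ldhb and Ldhd was not tested.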

How the data were processed

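RNA from 20 gastrocnemius samples was amplified from 250 ng each and hybridised to arrays, per the labels' protocols. The authors deposited log2 expression values made by RMA (background correction, quantile normalization and probe summarisation) with Partek, per the submitters' processing notes, which give no version; that the scale is log2 follows from RMA. Between arrays, quantiles differed on average by no more than 0.0627 within a cohort and by 0.168 to 0.228 between cohorts. Since RMA gives arrays common quantiles, the cohorts were treated as normalized separately.

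Of 35556 probe sets, 21789 had 1 gene symbol in the platform's table, 1621 had several and 12146 had none here; 21698 matched RefSeq by Entrez number. Of 999 genes with several probe sets the brightest over all arrays stood for the gene, and 19938 genes were tested. In R 4.3.3, limma 3.58.1 fitted the 4 group means (lmFit, contrasts.fit, eBayes), two-sided, with Benjamini-Hochberg adjustment over all genes and calls at an adjusted p under 0.05. The fit was tested on simulated data. The members and lists were chosen with earlier results of these data known. The named genes are the 7 members, the 3 genes most like each called member, and the targeted genes. Up to 4 called genes per pathway list and comparison with the largest change were also named. Others were named after their values were seen: Arnt, Gpd1, Gpd2, Hcar1, Hif1a, Nptn, Pdk1, Pdk2, Pdk3, Pdk4, Pdp1, Pdp2, Pdpr, and Gpt2 and Pcx in PGC-1alpha-mTg. Alternatives were quantile normalization across all arrays, median centring, dropping the 40 percent of genes with the lowest means, averaging the probe sets of a gene, testing every probe set, fitting the 10 arrays of one cohort alone, trend and robust moderation, array weights, the replicate number as a block, and leaving out each array in turn. Separate mice are not stated for the arrays of a group, so the p-values cover only the spread between samples, part of which may be technical.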

Additional observations from a re-analysis of the deposited data

Results flagged for a closer look

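Single arrays stood apart from the other 4 of their group in 9 of 148 combinations of gene and group. These combinations covered the 7 lactate genes and 30 pathway genes named by the size of their change. Chance marks about 1 in 20 groups. For Slc16a3, NCoR1-MKO 5 read 10.73, below the other knockout arrays at 10.93 to 10.98. For Emb, PGC-1alpha-mTg 4 read 4.88, above 4.68 to 4.74, and for Ldhd, PGC-1alpha-mTg 5 read 9.42, above 9.23 to 9.24. NCoR1-MKO 5 was also the highest knockout array for Slc16a1, at 9.62, and for Emb, at 5.09. Among the pathway genes, Dld was lowest on NCoR1-MKO 2 (10.32), Gpt2 highest on NCoR1-MKO 4 (11.74) and Ppargc1b lowest on NCoR1-MKO 5 (8.14). In WT, Car2 (7.18) and Car4 (8.12) were highest on array 5 and Car3 (13.23) on array 4.

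The effect of PGC-1alpha-mTg minus that of NCoR1-MKO passed limma's test for 4 lactate genes: Slc16a1 (1.01), Slc16a3 (-0.32), Ldha (-0.26) and Ldhd (0.50). It also passed for 23 of the 30 pathway genes named by the size of their change, among them Ppargc1a, the overexpressed gene itself. It was positive for Slc16a12 (0.31), Slc16a14 (0.34), Hagh (0.48), Pfkfb2 (0.81), Pdhb (0.62), Dlat (0.81), Dld (0.69), Pdhx (0.63), Got1 (0.56), Mdh1 (0.62), Slc25a11 (0.44), Got2 (0.42), Car2 (1.91), Car14 (1.01), Ppargc1a (1.93, but -0.90 on its dimmer probe set), Esrrb (1.33), Esrra (0.65) and Epas1 (0.58). It was negative for Slc2a1 (-0.35), Pkm (-0.26), Gpt2 (-0.68), Car3 (-0.94) and Ppargc1b (-0.73). The difference of Slc16a12 lost its call with 6 of the 20 arrays left out in turn (without CON 2 or 3, NCoR1-MKO 4, WT 2 or 5, or PGC-1alpha-mTg 4), after quantile normalization across all arrays (adjusted p = 0.0549) and after median centring (adjusted p = 0.0555), and that of Slc16a14 with 4 arrays left out in turn (without NCoR1-MKO 1 or 3, WT 1 or PGC-1alpha-mTg 4), with adjusted p up to 0.0625 and 0.0523.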

How the results depend on the processing

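Over 9 alternatives, 8 for the difference of the effects, the calls of the 7 genes stayed at 1 in NCoR1-MKO, 5 in PGC-1alpha-mTg and 4 for the difference. Leaving out 1 array gave 4 to 5 calls in PGC-1alpha-mTg, through Ldhb (0.24 to 0.34, adjusted p 0.0122 to 0.0701). Calls among all genes ranged from 370 to 685, 4973 to 6332 and 2631 to 3635. Only uncalled values near 0 changed sign: Bsg in NCoR1-MKO (-0.0035 after quantile normalization across 20 arrays, -0.0083 after median centring) and the difference for Emb (0.026 with array weights). Leaving out 1 array also moved Bsg (-0.010 to 0.0099), Emb (-0.026 to 0.11) and Slc16a1 (-0.05 to 0.11) in NCoR1-MKO, Emb in PGC-1alpha-mTg (-0.011 to 0.065) and the difference for Emb (-0.085 to 0.052). Called pathway genes in NCoR1-MKO numbered 15 with trend and robust moderation and 5 to 10 with 1 array left out; the cause was not tested. Emb has no value without the dim genes, and the difference was not fitted on 10 arrays.

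Whether the replicate numbers pair the samples was not settled. Deviations of same-numbered arrays correlated at -0.132 to 0.040 in NCoR1-MKO with CON. There 0 of 5 pairs were over 0.1, beside 4 of 20 pairs with different numbers. In PGC-1alpha-mTg with WT they correlated at -0.232 to 0.196, with 3 of 5 over 0.1, beside 5 of 20. So few pairs cannot decide the question. With the replicate block 370 and 5318 genes were called, and 1 and 5 of the lactate genes. Among the named pathway genes Dlat, Pdhb and Mdh1 missed the threshold in NCoR1-MKO with the block (adjusted p 0.0512, 0.115 and 0.0823).

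Small changes in dim genes such as Emb are limited by 5 arrays per group and an unknown background.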
